A study of Saccharomyces cerevisiae with 312 samples.

Results

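The strains described here carry a barcoded mutation in a gene for a protein of the large (60S) subunit of the yeast cytosolic ribosome. They were chosen by gene name, with earlier results of these data known. Every array feature whose annotated gene symbol is RPL and a digit, or RPP0, RPP1A, RPP1B, RPP2A or RPP2B, was taken. Features were averaged per gene. Of 75 such genes on the array, 33 had a feature with a value on at least 80% of arrays, and these 33 of 4125 measured strains are the large subunit strains. The other 42 genes fell below that share, among them RPP1B, whose best feature had a value on 79.5% of arrays, RPL9A (74.4%), RPL40B (73.4%), RPL5 (72.1%) and RPL10 (21.5%). The list follows what the arrays measured, so for many proteins only 1 of the paralogs, or none, is among the 33.

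The large subunit joins amino acids into protein. It is built in the nucleolus on ribosomal RNA (rRNA), exported to the cytoplasm and completed there by a few late joining proteins before it pairs with the small (40S) subunit. Most yeast ribosomal proteins are encoded by a pair of near-identical paralogs, named A and B, so a strain that lacks 1 paralog usually lives on the other and grows with fewer or altered ribosomes. Excess ribosomal proteins that are not assembled are removed by ubiquitin and the proteasome.

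In genetic interaction mapping, cells with a query mutation are mated to many barcoded yeast mutants at once and haploid progeny that carry both mutations are selected. Per the labels, these populations, derived from BY4741 and BY4742, then grew for 18 generations with G418 and a second antibiotic that keep both mutations. Genomic DNA of the query population (Cy3) and of a reference population (Cy5) was compared on 1 array. The queries were 139 gene deletions (DEL), 11 DAMP alleles, which destabilise a transcript, and 4 TETO2 alleles, which place a gene under a repressible promoter; the queries named below are deletions unless their allele is given. The reference population carried a mutation as well: 252 arrays used a mix of many deletions and 60 used a single deletion strain (YEL068C on 59 arrays, YPR014C on 1), so no population is wild type. A value is the log2 ratio of a strain in the query population over the reference, and a negative value means that the strain was scarcer with the query mutation. Slower growth of a combined mutant and a poor yield of it at selection cannot be told apart.

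There were 304 screens, and 140 queries with 2 or more screens were tested, 133 of them with 2. A strain was called lower or higher in a query where the limma fit over all 547925 strain and query pairs gave a Benjamini-Hochberg adjusted p under 0.05 and a mean log2 ratio of at least 1 in size. Values are given per screen and then as mean ± SD over the screens. A strain within 100 genes of the query was not tested with that query, because linkage depletes it. The part of linkage in pairs further apart on 1 chromosome was not tested. A screen measured at least 3290 strains. Whether the screens of 1 query came from separate cultures is not given in the labels, and the p-values therefore cover only the spread between screens, pooled over queries. Signal over background is not known for ratios, and the number of screens limits the precision.

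The large subunit strains moved often and in both directions. Of 4215 pairs of a large subunit strain and a query, 179 (4.25%) were called lower and 231 (5.48%) higher, against 2.33% lower and 1.21% higher over all pairs. The 19 measured small subunit strains had 91 lower (3.94%) and 79 higher (3.42%) of 2309 pairs, and 41 measured strains of large subunit assembly factors had 111 lower (2.07%) and 72 higher (1.34%) of 5362. All 179 lower and 228 of the 231 higher pairs had the same sign in every screen. In a fit that also blocks on the reference pool, called the pool block below, 149 of the 179 and 196 of the 231 were also called. Of the queries, 13 were screened against the same 2 pools, which no other query used. There the block cannot change a mean measured in both pools, so it is no check on the calls in those queries. A query mean had an SD over queries of 0.724 in the median large subunit strain, 0.937 in the median small subunit strain and 0.352 in the median strain of all. The residual SD between screens of a query had medians of 0.546, 0.730 and 0.381 in the same order. The ribosomal strains thus also varied more between screens, and that spread enters the SD over queries. Within the large subunit list the SD over queries ran from 0.187 in RPL3 to 1.51 in RPL40A. At least 1 call was made in 30 of the 33 strains, in 18 of the 19 small subunit strains and in 31 of the 41 assembly factor strains. Most strains of the series had a call too, 2817 of 4125.

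**Figure D1:**
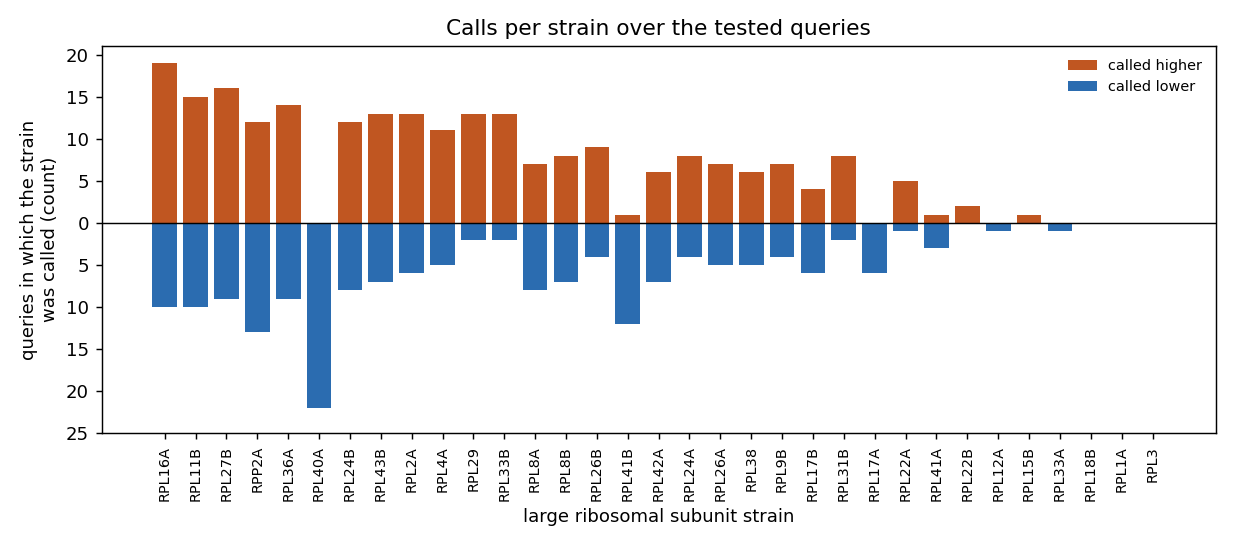
Number of tested queries (vertical axis) in which each of the 33 large subunit strains (horizontal axis) was called higher, above the line, or lower, below it. RPL16A leads the higher calls with 19, RPL40A has 22 lower calls and no higher one, and RPL3, RPL18B and RPL1A have no call.

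Several of the strains are altered in a protein that joins the subunit late, in the cytoplasm. RPL40A, which encodes ubiquitin fused to a 60S protein and so supplies free ubiquitin too, was called lower in 22 of 134 queries and higher in 0. Its query means among the calls ran from -7.86 to -1.95, and its highest mean over all queries was 1.70, in HBS1, a ribosome rescue factor with 1 turned screen. In the RPN4 query it stood at -10.19 and -5.54 in the 2 screens, or -7.86 ± 3.29 (adjusted p = 2.97e-22). RPN4 encodes the activator of proteasome genes. In UBP6, a deubiquitinating enzyme of the proteasome, the RPL40A strain stood at -5.74 and -6.31, or -6.03 ± 0.41 (adjusted p = 8.31e-15). In NPR3, a subunit of a complex that restrains TORC1 when amino acids are short, it stood at -6.36 and -4.52, or -5.44 ± 1.30 (adjusted p = 1.56e-12). Every screen of these 3 queries was thus below -4 for this strain. In the TETO2 allele of RRP6, a nuclear exosome exonuclease, the 2 screens gave -6.42 and -3.55, or -4.99 ± 2.03 (adjusted p = 8.24e-11). Other lower calls of RPL40A included RPN10 (-4.05 ± 2.53), a ubiquitin receptor of the proteasome, SEM1 (-3.73 ± 0.28), a lid subunit, and MAK3 (-3.10 ± 1.20, 3 screens), an N-terminal acetyltransferase. The call in ADE4 rested on 1 of its 2 screens, which gave -0.16 and -5.89. RPL40A was read from 1 array feature, so no second barcode feature checks its values.

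RPL41B, for a very short peptide at a bridge between the subunits, shared this lean with 12 lower calls and 1 higher call in 137 queries. It stood at -3.24 and -2.51 in RPN4 (-2.88 ± 0.52, adjusted p = 4.69e-16) and at -2.57 and -2.86 in UBP6 (-2.71 ± 0.21, adjusted p = 1.34e-14). With quantile normalization these means were -0.92 and -0.96 and missed the size of 1. Its paralog RPL41A had 3 lower calls and 1 higher call, the largest of the lower ones in RPN4 at -1.50 and -1.36. RPL42A, another late joining protein, was lower in 7 and higher in 6 of 105 queries. Its lowest value was -4.91 and -3.05 in NPR3, or -3.98 ± 1.31 (adjusted p = 1.97e-10). RPL29, also a late joining protein, leaned the other way, with 2 lower and 13 higher calls in 112 queries and its highest mean in TRM1, at 3.07 and 2.07 (2.57 ± 0.71, adjusted p = 1.21e-06). RPL24B and RPL24A, paralogs for a late joining protein that forms a bridge to the small subunit, had 8 lower and 12 higher calls, and 4 lower and 8 higher calls.

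The 5S particle, a unit of 5S rRNA with proteins Rpl5 and Rpl11, was represented by RPL11B. This strain was lower in 10 and higher in 15 of 116 queries, shares of 8.62% and 12.9%. Its means ran from -2.33 ± 0.10 in RPN10 (screens -2.26 and -2.41) to 2.25 ± 0.52 in GIM4 (screens 1.88 and 2.63), with adjusted p of 1.58e-05 and 3.37e-05. The stalk, which recruits translation factors, was represented by RPP2A, for an acidic P2 protein, and RPL12A, for a protein at the stalk base. RPP2A was lower in 13 and higher in 12 of 133 queries. It stood at -4.57 and -5.18 in UBP6 (-4.88 ± 0.43, adjusted p = 4.62e-22) and at -5.14 and -3.89 in RPN4 (-4.52 ± 0.89, adjusted p = 1.11e-19). At the other end it stood at 2.06 and 2.36 in the DAMP allele of NOP56 (2.21 ± 0.22, adjusted p = 7.8e-06), a core protein of box C/D small nucleolar RNA particles. RPL12A had 1 call in 136 queries, in SXM1, at -3.04, -3.70, -2.76 and -2.70 in the 4 screens (-3.05 ± 0.46, adjusted p = 2.34e-07). No screen of SXM1 was above -2 for that strain. RPL12A lies within 100 genes of the YEL068C deletion, the reference of 58 screens, and linkage depletes strains near a deletion, which raises their ratio over that reference. Its median was 1.20 in the 56 such screens that measured it and 0.17 in 240 other screens. Without the values against YEL068C its SXM1 mean was -3.05 (adjusted p = 7.06e-08), and it was also called in GCN2 (2.02, adjusted p = 0.0103) and PTC1 (-1.83, adjusted p = 0.0259). No other large subunit strain lies that close to a single reference deletion.

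The strains of RPL4A, RPL17A, RPL17B, RPL26A, RPL26B and RPL31B are altered in proteins that line the peptide exit tunnel or surround its exit. They held 3.48% lower and 4.85% higher calls of 804 pairs. RPL26A and RPL26B fell together in RRP6: RPL26A stood at -4.00 and -2.28 (-3.14 ± 1.22, adjusted p = 7.14e-17) and RPL26B at -4.78 and -2.02 (-3.40 ± 1.96, adjusted p = 3.7e-11). Both were also lower in RPN4, RPL26A at -3.04 and -2.24 (-2.64 ± 0.57, adjusted p = 1.03e-12) and RPL26B at -3.54 and -2.50 (-3.02 ± 0.74, adjusted p = 4.39e-09). The RPL26A mean in RPN4 was -0.85 with quantile normalization, under the size of 1. RPL4A had 5 lower and 11 higher calls, and RPL31B 2 and 8. RPL17A had 6 lower calls and 0 higher ones, with -1.86 and -2.05 in RRP6 as its lowest (-1.96 ± 0.13, adjusted p = 2.12e-08). RPL17B ranged from -3.95 ± 3.11 in RPN4, where the screens gave -6.15 and -1.75, to 2.41 ± 0.15 in RPS28A.

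The other 17 strains encode proteins spread over the subunit and held 3.18% lower and 5.71% higher calls of 2173 pairs. RPL16A, RPL27B, RPL36A, RPL43B, RPL2A and RPL33B each had more higher than lower calls, from 19 and 10 in RPL16A to 13 and 2 in RPL33B. RPL8A and RPL8B, paralogs for a protein needed early in subunit assembly, moved both ways. RPL8B reached 3.76 and 2.54 in GIM4 (3.15 ± 0.86, adjusted p = 1.01e-08), the higher pair with the smallest adjusted p among those whose screens shared a sign. GIM4 encodes a subunit of prefoldin, a chaperone that passes new proteins on for folding. Without replicate 1 of each query the adjusted p of that pair was 0.0604. RPL36A fell to -3.59 and -4.54 in UBP6 (-4.06 ± 0.67, adjusted p = 4.84e-15). At the quiet end, RPL3, RPL18B and RPL1A had no call, and their SDs over queries were 0.187, 0.221 and 0.221. RPL33A and RPL15B had 1 call each, and RPL22B had 2. The RPL15B call, in the TETO2 allele of the nuclear exonuclease RAT1, came from screens at 3.43 and -0.12, which do not share a sign.

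Calls were concentrated in few queries. A large subunit strain was lower in 45 of the 140 queries and higher in 48, both in 19, and neither in 66. The 14 queries with 5 or more lower strains held 116 of the 179 lower calls, and the 16 with 5 or more higher strains held 179 of the 231 higher calls. How the calls of all strains spread over queries was not counted. Among the 14 were YLR177W, OTU1, YKL023W, YCL001W-A and PIN4, from the 13 queries on the 2 shared pools, with 10, 10, 7, 7 and 7 lower strains. Set against the other queries of those pools they had 1, 1, 1, 3 and 1. Of all strains, 3, 7, 4, 20 and 161 were lower there, of 3861 to 4031 tested. The median of the large subunit strains ran over queries from -1.19 to 1.79.

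**Figure D2:**
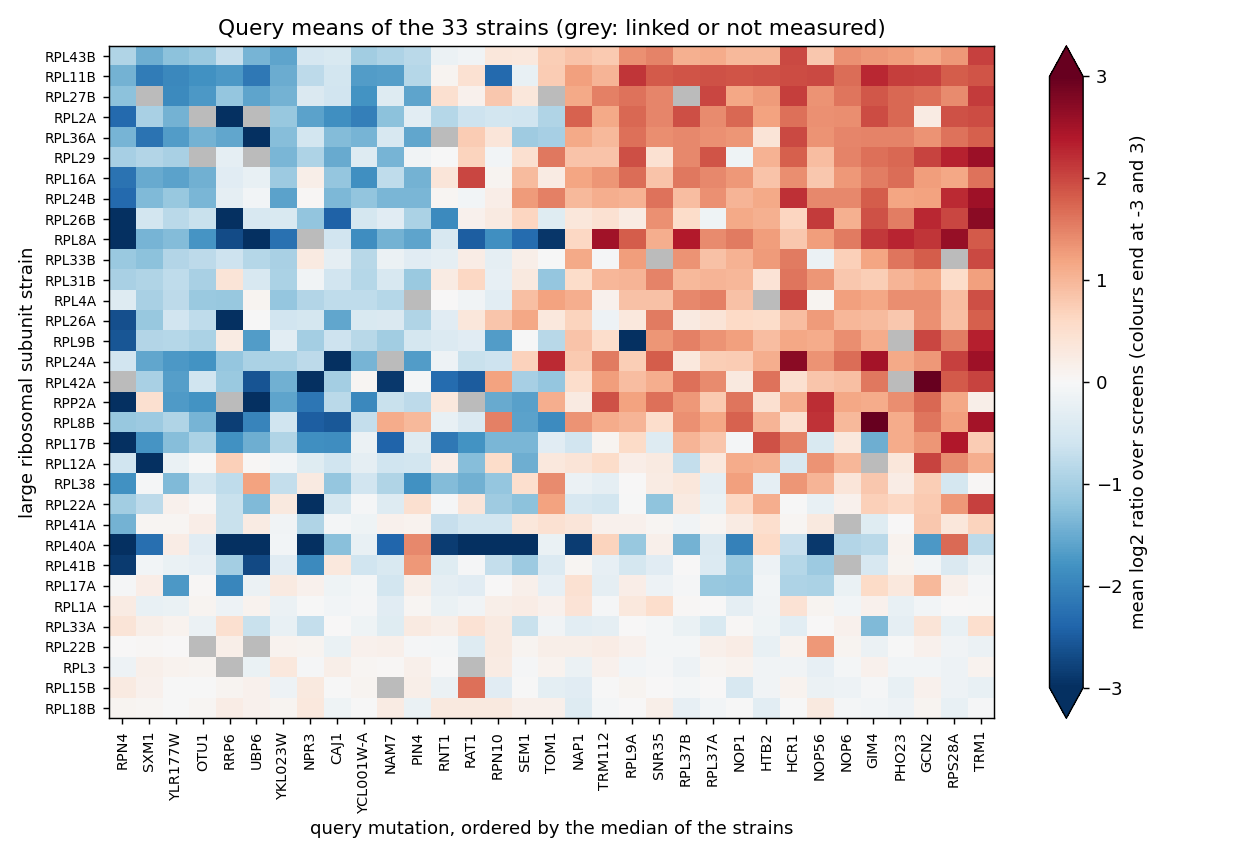
Mean log2 ratio over screens (colour) of the 33 large subunit strains (rows) in the 33 tested queries with 5 or more calls among them (columns, ordered by the strains' median). Rows are ordered by how closely a strain followed the median of the other strains. The upper rows turn from blue at RPN4 to red at TRM1 together, while RPL40A and RPL41B stay blue or pale in most columns and the lowest rows stay near 0.

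The queries with most lower strains were RPN4 with 14 of 25 tested (14.6% of all strains were lower there), SXM1 with 13 of 32 (4.75% of all strains), UBP6 with 11 of 29 (12% of all), OTU1 with 10 of 30 (1.56% of all), YLR177W with 10 of 32 (1.27% of all) and RRP6 with 9 of 27 (9.56% of all). In RPN4 the median of the large subunit strains was -1.82 and -1.02 in the 2 screens, and that of the small subunit strains was -2.91 and -1.12. In UBP6 the large subunit medians were -0.65 and -0.80 and the small subunit ones -1.15 and -1.56. So strains of both subunits were low in both screens of these proteasome queries. UBP6 also had 1 higher strain, RPL38, at 1.42 and 1.01 (0.174% of all strains were higher). Under the other settings, shares of all strains in single queries were not computed. With quantile normalization, which gives every array the same spread, the lower counts were 2 in RPN4, 8 in SXM1, 3 in UBP6 and 4 in RRP6. With 1 screen of each query left, RPN4 had 10 lower strains with either screen, UBP6 8 or 5, RRP6 8 or 7, OTU1 2 or 0 and YLR177W 4 or 1.

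In SXM1, which encodes an importin that carries proteins into the nucleus, the large subunit strains were low while the small subunit strains were not, though the difference between the lists was not tested. Its large subunit medians were -1.50, -0.58, -0.60 and -0.53 in 4 screens, while its small subunit medians were -0.18, 0.17, 0.33 and -0.31, and 0 of 18 tested small subunit strains were lower. In each of the 4 screens the large subunit median was below the small subunit one. RPL36A stood at -3.67, -2.09, -1.49 and -1.60 (-2.21 ± 1.01, adjusted p = 1.1e-09) and RPL40A at -2.33, -2.26, -2.67 and -1.80 (-2.26 ± 0.36, adjusted p = 6.96e-05). The first screen, the lowest, was the one set against a single deletion strain as reference. Without it 7 strains were lower in place of 13, and with the pool block 8 were lower. In RRP6, 15 of 40 assembly factor strains and 5 of 14 small subunit strains were lower beside the 9 of 27 large subunit strains.

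OTU1, a deubiquitinating enzyme that works with Cdc48, and YLR177W, a gene of unknown role, were among 13 queries that were screened against the same 2 reference pools, which no other query used. In 10 of these 13 queries the large subunit median was below 0. Set against the mean of the other queries of those pools, OTU1 and YLR177W each had 1 lower strain in place of 10, where 0.174% and 0.0762% of all strains were lower. The median of the large subunit strains was -0.77 in OTU1 and -0.87 in YLR177W. Their median difference from the mean of the other queries of the pools was -0.67 and -0.68. That mean includes GCN2, HCR1 and SRO9, whose large subunit medians were 1.26, 0.93 and 0.19. A difference from the low queries alone was not computed. The share of the pools in the OTU1 and YLR177W calls was not tested further.

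Higher calls came from queries of several functions. TRM1, which encodes a tRNA methyltransferase, had 18 of 33 strains higher (4.6% of all strains were higher there). Its large subunit medians were 1.70 and 1.42, its small subunit medians 0.89 and 0.03 with 0 of 19 higher, and its assembly factor medians 0.55 and 0.74 with 10 of 36 higher. RPL24B stood at 2.61 and 2.47 (2.54 ± 0.10, adjusted p = 1.5e-07), RPL26B at 2.67 and 2.75 (2.71 ± 0.06, adjusted p = 1.81e-07), RPL43B at 2.24 and 1.88 (2.06 ± 0.26, adjusted p = 1.71e-07) and RPL26A at 1.70 and 1.87 (1.79 ± 0.12, adjusted p = 2.09e-06). The 2 screens of TRM1 gave values close to each other for these strains, which were named for their small p. The screens lay further apart for RPL29 (3.07 and 2.07) and RPL11B (2.37 and 1.42). UBP6 and TRM1 were screened against the same 2 reference pools.

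GCN2, the kinase that slows translation when amino acids run short, had 16 of 32 strains higher (6.25% of all), with large subunit medians of 0.68 and 1.72 and small subunit medians of 0.01 and -0.14. HCR1, a subunit of initiation factor eIF3 that also acts in small subunit maturation, had 13 of 33 higher (1.23% of all), with medians of 1.10 and 0.79 against 0.51 and 0.23 for the small subunit strains. Both queries belong to the 13 on the 2 shared pools, where 10 queries had a large subunit median below 0. Set against the other queries there, 19 strains were higher in GCN2 (7.87% of all) and 16 in HCR1 (2.8% of all). In HCR1, RPL43B stood at 1.87 and 2.08 (1.97 ± 0.14, adjusted p = 6.31e-07), RPL4A at 2.19 and 1.88 (2.04 ± 0.22, adjusted p = 2.11e-06) and RPL31B at 1.74 and 1.48 (1.61 ± 0.18, adjusted p = 3.4e-06). In GCN2 the second screen was the higher for every strain called, as with RPL26B at 1.46 and 3.07.

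RPS28A, a small subunit protein, had 14 of 32 large subunit strains higher (3.46% of all), with medians of 1.29 and 1.28. PHO23, a subunit of the Rpd3 histone deacetylase complex, had 14 of 30 (1.49% of all), with medians of 0.75 and 1.28. GIM4 had 15 of 32 (4.33% of all), with medians of 0.51 and 1.55, and 1 lower strain, RPL33A (4.61% of all were lower). The small subunit medians in these 3 queries were 1.45 and 0.96, 0.92 and 1.45, and 1.10 and 1.74, and 3 of 17, 1 of 17 and 9 of 19 small subunit strains were called higher. Queries of rRNA modification or processing followed: SNR35, a small nucleolar RNA, with 12 of 32 higher (2.32% of all), the DAMP allele of NOP56 with 11 of 33 (4.79% of all) and NOP6 with 11 of 31 (0.869% of all). Outside these queries, RPL16A reached 1.39 and 2.61 in the TETO2 allele of RAT1 (2.00 ± 0.86, adjusted p = 4.27e-06; 0.0544 with quantile normalization).

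The higher counts depended on the scaling and on having both screens. Without a minimum share of arrays, which admits 74 member genes, 29 were higher in TRM1 and 26 in GIM4. That setting tested 5557 member pairs in place of 4215, and 8206 pairs were higher over all strains in place of 6630. Shares of all strains in single queries were not computed for the settings of this paragraph, so these counts have no background beside them. With quantile normalization the higher counts were 2 in GCN2, 5 in GIM4, 6 in RPS28A, 3 in NOP56 and 6 in NOP6. The fit blocked on the reference pool gave 7 in GIM4, 17 in NOP56 and 6 in NOP6. Leaving out replicate 1 gave 10 in TRM1, 10 in GIM4, 6 in RPS28A, 4 in PHO23, 6 in HCR1, 4 in SNR35, 3 in NOP56 and 2 in NOP6, and 14 in GCN2. Leaving out replicate 2 gave 4 in TRM1, 0 in GCN2, 1 in GIM4, 1 in RPS28A, 0 in PHO23, 1 in HCR1, 1 in SNR35, 4 in NOP56 and 0 in NOP6.

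**Figure D3:**
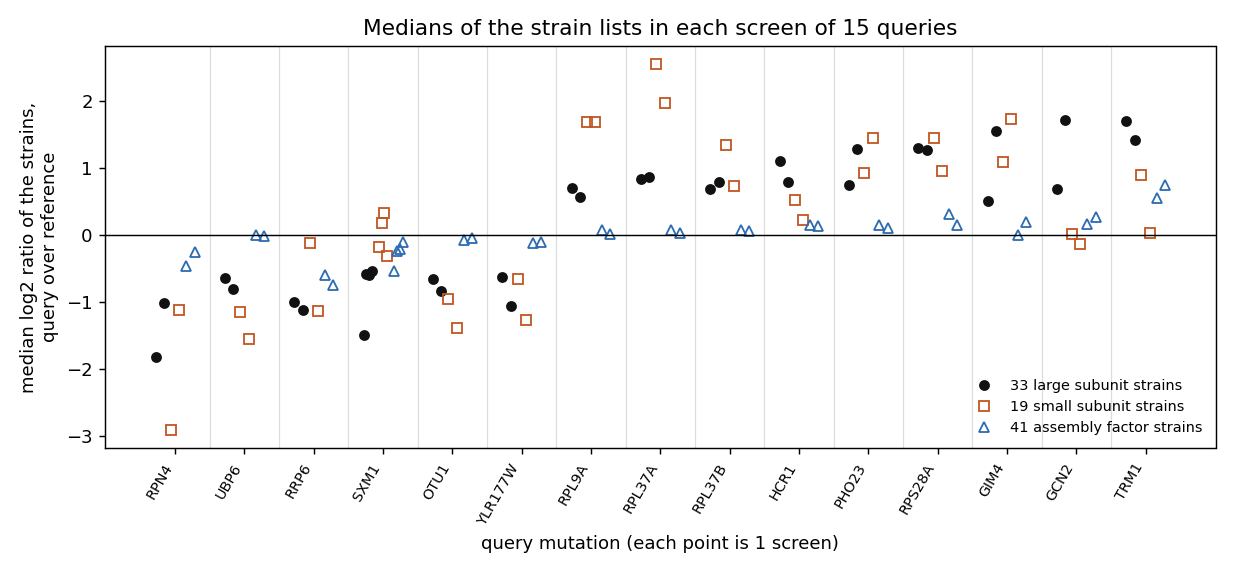
Median log2 ratio (vertical axis) of the measured large subunit, small subunit and assembly factor strains in each screen of 15 queries (horizontal axis). Large subunit medians lie below 0 in all screens of RPN4, UBP6, RRP6, SXM1, OTU1 and YLR177W and above 0 in all screens of the other 9 queries, while small subunit medians of SXM1, GCN2 and the second TRM1 screen lie near 0.

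Several queries were themselves ribosomal protein deletions. RPL37B had 12 of 30 large subunit strains higher (1.57% of all) and RPL37A 11 of 31 (1.98% of all). RPL9A had 10 of 32 (1.97% of all). Their large subunit medians were 0.68 and 0.79, 0.83 and 0.86, and 0.70 and 0.56, and their small subunit medians were higher in 5 of 6 screens, up to 2.55 in RPL37A, where 12 of 18 small subunit strains were higher. RPL11B stood at 1.90 and 1.94 in RPL37A, at 1.90 and 1.85 in RPL37B and at 2.03 and 2.24 in RPL9A (adjusted p = 0.000678, 0.000971 and 0.0001). With 1 screen of each query left, 1 or 0 strains were called in each of these 3 queries. Without a minimum share of arrays, which admits 74 member genes in place of 33, the counts were 21, 19 and 18 in RPL37A, RPL37B and RPL9A. The shares of all strains in these queries were not computed for that setting.

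The other ribosomal protein queries had few calls. RPL24B had 1 of 31 strains higher (0.604% of all), RPL12B 1 of 24 (0.693%), RPL7B 0 of 31 (0.757%), RPS14A 0 of 31 (2.17%), RPS14B 1 of 31 (1.55%) and RPS28B 0 of 29 (0.281%), where its paralog RPS28A had 14. The difference between the paralog queries was not tested. RPL12B also had 2 lower strains (9.88% of all were lower), RPL8A at -2.92 and -2.44 and RPL41B at -2.33 and -1.21, and RPL37A had 1 (3.98% of all), RPL17A at -1.51 and -0.78. A strain in the query of its own paralog was measured in 3 cases. RPL9B in RPL9A had 1 screen, at -3.19, the lowest value of any query for that strain, and no test. RPL24A in RPL24B gave -1.28 and -1.33 (adjusted p = 0.132), and -1.84 with quantile normalization (adjusted p = 0.0209). RPL12A in RPL12B gave -0.63 and -0.66 (adjusted p = 0.813), and 1.35 with the pool block (adjusted p = 0.0623).

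Query classes were compared by limma on query means, class minus all other queries, with calls at an adjusted p under 0.05 and a difference of at least 0.5. In the class of 12 proteasome queries, subunits, chaperones and regulators of the proteasome, 9 of 33 large subunit strains were lower and 0 higher, where 10.9% and 1.6% of all strains were. The 12 were PRE9, RPN10, SEM1, RPN4, UBP6, HUL5, NAS2, NAS6, RPN14, ADD66, POC4 and IRC25. FUB1 and SPG5, also accessory proteasome factors, were counted among the other queries. Each had 0 large subunit strains lower, with medians of 0.18 and 0.02. The class also lowered 3 of 19 small subunit strains and 1 of 41 assembly factor strains. The median difference of the 33 strains was -0.27, against -0.00 over all strains. RPP2A differed by -1.77 (adjusted p = 2.58e-07): its mean was -1.71 ± 1.71 over the 12 queries, with 10 of them below 0, from -4.88 in UBP6 to 0.17 in NAS2, a proteasome assembly chaperone. It was also called lower in PRE9, a core subunit (-2.30 ± 0.98), and in POC4 (-2.43 ± 0.11) and IRC25 (-2.49 ± 0.66), a pair of chaperones of core assembly. RPL40A differed by -1.78 (adjusted p = 0.000766), with 10 of 12 queries below 0, and RPL8A by -1.41 (adjusted p = 0.00179), with 9 of 12. RPL11B differed by -1.25 (adjusted p = 0.000877), with 7 of 10, and RPL36A by -0.81 (adjusted p = 0.00689), with 11 of 12. The median of RPL36A over the 12 queries was -0.35, and its lowest value was -4.06 in UBP6. RPL22A (-0.88), RPL9B (-0.84), RPL17B (-1.03) and RPL31B (-0.51) were lower as well, but with the pool block their adjusted p were 0.0822, 0.0952, 0.0946 and 0.419. That fit left 5 of the 9 calls, quantile normalization left 2, and leaving out the RPN4 or the UBP6 query left 8 or 7.

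**Figure D4:**
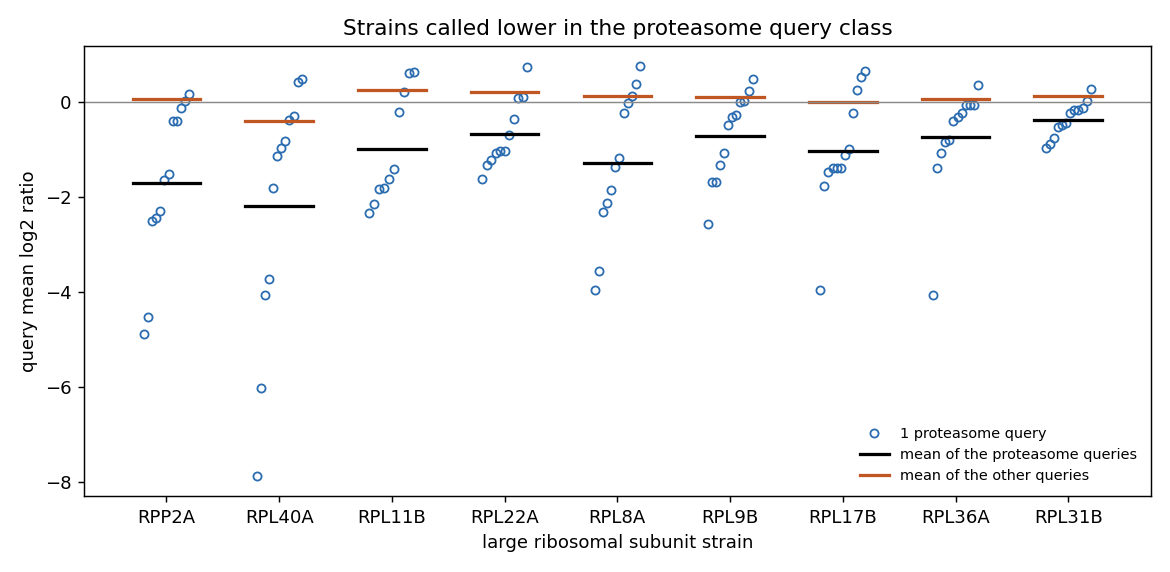
Query mean log2 ratio (vertical axis) of the 9 large subunit strains called lower in the proteasome class (horizontal axis), with 1 circle per proteasome query, the class mean in black and the mean of the other queries in orange. RPP2A and RPL40A reach furthest down, to -4.88 and -7.86, and each strain has at least 1 query above 0.

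The remaining classes moved few large subunit strains past the threshold. In the 6 large subunit queries 0 were lower and 0 higher (0.752% and 0.485% of all strains), with 0 lower and 11 higher at an unadjusted p under 0.05 (4.68% and 4.87% of all), a median difference of 0.24, and 7 of 19 small subunit strains higher. With the pool block RPL31B (0.79, adjusted p = 0.0456) and RPL16A (1.16, adjusted p = 0.0312) were higher in that class. In the 4 small subunit queries 0 were lower and 0 higher (0.0485% and 0% of all), with 0 and 5 at an unadjusted p under 0.05 (1.96% and 2.84% of all). Large minus small subunit queries gave 0 and 0 (0.0242% and 0.0485% of all), with 0 and 1 unadjusted (3.13% and 1.6% of all). In the 8 translation factor queries 0 were lower and 0 higher (0.0727% and 0% of all), with 0 and 8 unadjusted (4% and 1.89% of all). In the 20 queries of small nucleolar RNA particles (snoRNP) 0 were lower and 1 higher (1.21% and 1.28% of all), RPL12A, which differed by 0.61 (adjusted p = 0.0038; 0.0547 with the pool block, a fit in which 11 strains were higher). Of the 37 screens of that class, 15 were set against the YEL068C deletion, to which RPL12A is linked, and without those values RPL12A differed by 0.24 (adjusted p = 0.341), which ends the call. In the 9 nuclear RNA processing queries 1 was lower and 0 higher (2.59% and 0.8% of all), RPL41A, which differed by -0.52 (adjusted p = 0.0145). With the pool block RPL26B was lower too (-0.88, adjusted p = 0.0476) and RPL15B higher (0.55, adjusted p = 8.77e-05).

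Across queries many of the strains followed each other, as a description without a test, since strains share their arrays and pools. Among 528 pairs of large subunit strains the median Pearson r over queries was 0.25, with 394 above 0 and 136 at or above 0.5. Small subunit strains had a median of 0.49 among themselves, large with small 0.29, assembly factors 0.07 and all strains -0.00. RPL43B (0.85), RPL11B (0.82) and RPL27B (0.81) followed the median of the other large subunit strains most closely. RPL40A (0.26), RPL41B (0.16) and RPL17A (0.08) followed it little, and RPL18B had the lowest value at -0.22. Query medians of large and small subunit strains had an r of 0.71 over all queries, and those of large subunit and assembly factor strains 0.60.

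**Figure D5:**
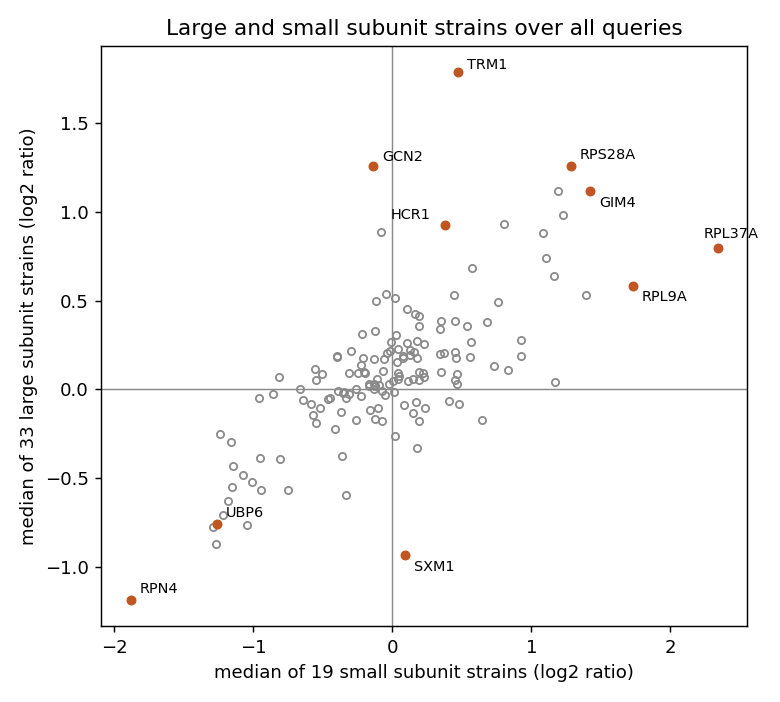
Median log2 ratio of the 33 large subunit strains (vertical axis) against that of the 19 small subunit strains (horizontal axis), with 1 circle for each query and 10 queries named. Most points rise from RPN4 at the lower left to RPS28A and GIM4 at the upper right, with SXM1 among the points below that trend and TRM1 and GCN2 among those above it.

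The r of paralog profiles ranged widely. Over 139 to 150 queries, r was 0.86 for RPL26A and RPL26B, 0.78 for RPL24A and RPL24B, 0.60 for RPL8A and RPL8B, 0.45 for RPL41A and RPL41B, 0.11 for RPL17A and RPL17B, -0.11 for RPL33A and RPL33B and -0.16 for RPL22A and RPL22B. The first pair was called in the same direction in 8 queries, of 12 called for RPL26A and 13 for RPL26B. The RPL24 pair shared 10, of 12 and 20, and the RPL8 pair 6, of 15 and 15. The RPL22 pair shared 0, of 6 and 2. SDs over queries were 0.728 for RPL22A and 0.269 for RPL22B, with residual SDs between screens of 0.639 and 0.388. RPL33A had 0.403 over queries and 0.334 between screens, and RPL17A 0.451 and 0.398. The low r of the RPL17, RPL33 and RPL22 pairs each involve 1 of these flat strains. Such an r cannot tell unlike paralogs from a profile near the spread between screens. Of all measured strains, those most like RPL16A, RPL27B, RPL11B and RPL36A in profile were other large subunit strains, such as RPL43B for RPL27B (r = 0.86, 145 queries). For RPP2A they were not: MFA2 (r = 0.77, 141 queries), which encodes a mating pheromone, VPS13 (0.74, 144 queries), a lipid transfer protein, and YNL143C (0.74, 141 queries) came first.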

How the data were processed

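The submitters deposited 1 table of log ratios, taken here as log2, with 1 value per array feature and 0 columns left unused. The sources used here do not give the log base, normalization, centring or direction. Of 15744 features, 13084 carry a gene name in the platform annotation and 2660 none; symbols were updated through RefSeq R64. Features on at least 80% of arrays (8632) were averaged per strain, and each of the 312 arrays was centred on its median (medians -0.19 to 0.48 before). Strains within 25 genes of a query should be depleted, and 17 arrays of 2 pools on which they were high were turned. The 8 screens with 2 arrays were averaged. limma 3.58.1 in R 4.3.3 fitted 1 mean per query, with variance pooled over all queries (prior 4.82 and median residual 150 degrees of freedom, median residual SD 0.381); tests are two-sided. The 14 queries with 1 screen were not tested. The fit was tested on simulated data.

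The members and lists were chosen with earlier results of these data known. The text names the 12 members with most calls and those with none, the 12 lower and 10 higher pairs with the smallest p and screens of one sign, paralogs in paralog queries, called members of each class (9 in the proteasome class, over a limit of 5, all named after their values were seen), the queries with most calls and the strains most alike. SNR35, NOP56, NOP6, HCR1 and RRP6 and single pairs in them were added after their values were seen. Replicate numbers were checked as pairs: over 9453 pairs of queries the deviations of same-numbered screens had a median r of 0.01 (-0.65 to 0.87), so they do not pair screens. Alternatives covered the direction, a replicate block, the reference pool as a block, quantile normalization, the feature filter, the linked window and left-out replicates. Chosen after seeing the data were runs without turned arrays, without the 2 shared pools, without strains linked to a single reference deletion, without RPN4, UBP6 or the first SXM1 screen, and within the shared pools. No sequence is printed, since no table of them was used here.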

Additional observations from a re-analysis of the deposited data

Results flagged for a closer look

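In groups of 4 screens, the 3 values below lay far from the rest by Dixon's test; 12 such groups were tested, and chance flags about 1 in 20. All are the first SXM1 screen, the one set against a single deletion strain. The median of the large subunit strains was -1.50 there against -0.58, -0.60 and -0.53 in the others. RPL8A stood at -1.97 against -1.22, -1.15 and -1.26, and RPL8B at -2.49 against -0.83, -0.49 and -0.51. The part of the reference in these values was not tested. Without that screen 7 large subunit strains were lower in SXM1.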

How the results depend on the processing

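Counts of called large subunit pairs were 179 lower and 231 higher (12773 and 6630 over all pairs). They were 115 and 108 with features on at least 95% of arrays, which leaves 21 of 33 members and 2818 pairs (10668 and 4984 over all pairs), and 88 to 105 and 41 to 97 with replicate 1 or 2 left out (8025 to 9133 and 3318 to 4248 over all), where most queries keep 1 screen that is assumed to vary like the others. Other settings stayed within 1.5 times: 164 and 235 with a replicate block (12546 and 6206 over all pairs), 213 and 334 when blocked on the reference pool (the pool block; 14108 and 9125 over all), 147 and 172 with quantile normalization (10792 and 5310), 121 and 189 without the 2 shared pools (10915 and 5505). The replicate block changed no class count. Proteasome queries lowered 9 members, but 5 with the pool block, 2 with quantile normalization and 4 with 95% features. Large subunit queries raised 0, but 2 with the pool block, 2 with quantile normalization, 1 without the shared pools and 0 to 1 with a replicate left out. For snoRNP queries the higher count of 1 became 3 as deposited, 11 with the pool block, 0 with quantile normalization, 0 without a minimum share, 2 without turned arrays, 0 without strains linked to a single reference deletion and 1 to 3 with a replicate left out; the lower count of 0 became 1 without a minimum share and 0 to 1 with a replicate left out. Nuclear RNA processing queries lowered 1 member, but 0 as deposited, 2 with the pool block, 0 with quantile normalization, 2 without the shared pools and 1 to 3 with a replicate left out, and raised 1 in place of 0 with the pool block. Of the named pairs under these alternatives, 267 values kept call and sign, 10 lost the call, 1 gained it and 1 turned, RPL12A in RPL12B, to 1.35 with the pool block. The causes were not tested. Signal over background is unknown and limits what can be said of quiet strains.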

Other observations

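RPL22B, otherwise a quiet strain, was called higher in the query SNR34, a small nucleolar RNA, from screens at 3.47 and -0.29, which do not share a sign. RPL33A stood at -3.40 in FPR4, a histone chaperone and proline isomerase, where it was not tested. RPL17B, for a protein at the tunnel exit, was higher in the pseudouridine synthase query PUS1 in all 4 screens, at 1.98, 1.82, 1.07 and 1.79, and in all 3 screens of the small nucleolar RNA query SNR33, at 1.79, 1.85 and 2.03. RPL38 was higher in TRM9, a tRNA methyltransferase, at 1.29 and 2.26, and lower in PIN4 at -1.60 and -2.05.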
